A study of Homo sapiens with 4 samples.

Results

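The 10 genes described here encode transcription factors of epithelial-to-mesenchymal transition (EMT), namely *SNAI1*, *SNAI2*, *TWIST1*, *TWIST2*, *ZEB1*, *ZEB2*, *TCF4*, *TBX2*, *TBX3* and *PRRX1*. They were chosen by name, but with earlier results of these data known, so the choice was not blind to their values. All 10 were found among the 63677 Ensembl genes counted, and all 10 were among the 18252 genes with enough counts to be tested. RNA was sequenced from LX-2, an established human hepatic stellate cell line, after transfection with a miR-6133-5p mimic or with a negative control mimic (miControl), each at 20 nM. Cells of both groups received 5 ng/mL of recombinant human TGF-β1 at 24 h after transfection, and RNA was taken 24 h later. Each group had 2 libraries, called replicates 1 and 2. Since every library came from TGF-β1-treated cells, an effect of TGF-β1 itself could not be read, and LX-2 is 1 cell line.

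Transcription factors of EMT bind regulatory DNA of epithelial genes, such as that of the E-cadherin gene *CDH1*, and repress them, and several also raise mesenchymal genes. The Snail and ZEB zinc finger proteins bind the E-box CACCTG, the TWIST proteins are basic helix-loop-helix (bHLH) factors that bind E-boxes together with E proteins such as TCF4, and the T-box and PRRX1 factors are developmental regulators of mesenchyme. TGF-β is a classical inducer of several of these genes. Hepatic stellate cells are already mesenchymal, and these factors are studied there in connection with the change to a collagen-producing myofibroblast.

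The hairpin from which miR-6133-5p is processed is shown because its mature strand was the agent tested. RefSeq places *MIR6133* at chr7:133290881-133290988 on the plus strand of GRCh38.p14, with a length of 108 bases. The RNA runs 5′ to 3′ and is all in lower case, since no mature strand is marked in it.
MIR6133: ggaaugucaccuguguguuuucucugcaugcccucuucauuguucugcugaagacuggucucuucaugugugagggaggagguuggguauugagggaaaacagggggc
Promoter windows from RefSeq, of 300 bases with 250 before and 50 after a gene start, were available for 5 of the 10 genes, *PRRX1*, *ZEB1*, *ZEB2*, *TWIST2* and *TCF4*, as 20 windows. Shown are the window of *PRRX1*, the gene with the largest fall of the 10, at chr1:170663881-170664180 on the plus strand, and 1 window of *ZEB1*, a gene whose libraries overlapped, at chr10:31318966-31319265 on the plus strand, both of GRCh38.p14. Capitals mark the E-box CACCTG or, on the other strand, CAGGTG.
PRRX1: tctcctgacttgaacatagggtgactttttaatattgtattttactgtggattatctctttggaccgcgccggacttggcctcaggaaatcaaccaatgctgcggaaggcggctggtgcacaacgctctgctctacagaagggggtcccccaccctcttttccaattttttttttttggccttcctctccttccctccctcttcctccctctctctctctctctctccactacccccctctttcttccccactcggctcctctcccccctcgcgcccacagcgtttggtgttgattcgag
ZEB1: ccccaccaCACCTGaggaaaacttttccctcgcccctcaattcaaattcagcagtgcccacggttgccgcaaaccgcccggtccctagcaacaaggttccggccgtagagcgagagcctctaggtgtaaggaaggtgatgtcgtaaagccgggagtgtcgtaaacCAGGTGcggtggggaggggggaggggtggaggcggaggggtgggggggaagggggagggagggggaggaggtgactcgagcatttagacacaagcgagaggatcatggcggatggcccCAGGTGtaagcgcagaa
The *PRRX1* window held neither the E-box nor the looser form CANNTG. The *ZEB1* window held 3 E-boxes, starting at positions 9, 166 and 284 counted from 1 at its 5′ end, and was shown because it held the most. Of the 7 windows of *ZEB1*, 5 held none, and of all 20 windows of the 5 genes 2 held the E-box, both of *ZEB1*. Among all 35116 RefSeq windows of this length, 20.6% held CACCTG on either strand and 68.7% held CANNTG, which includes it. A match describes these letters and is not a measured binding site.

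Counts on genes summed to between 51862006 and 93811213 per library, and from 96.52% to 96.76% of read pairs mapped to a unique place. There were between 1.68 and 1.70 counts per uniquely mapped pair. Levels are given as CPM, the count per 1000000 counts of the library total times a TMM factor of edgeR, and 3 counts corresponded to at most 0.0610 CPM. Libraries were labelled as replicates with no word on separate cultures, so p-values measure the spread between these libraries, which may be technical. Of the 12 stellate cell markers listed, *COL1A1*, *COL1A2*, *ACTA2*, *VIM* and *PDGFRB* were well detected, whereas *DES*, *LRAT* and *GFAP* had at most 8 counts in any library. The summed level of the stellate markers was 5118 and 4641 CPM in miControl and 3111 and 2787 CPM in miR-6133-5p, most of the difference being that of *COL1A1*, from 3112 and 2723 CPM to 995 and 1133 CPM. Of the 8 stellate markers tested, *COL1A1*, *COL1A2* and *ACTA2* were called lower, *VIM*, *PDGFRB*, *RELN* and *HAND2* overlapped, *NGFR* was above in both miR-6133-5p libraries at 0.42 and was not called, and the median log2 fold change was -0.05. Summed markers of hepatocytes ran from 2.01 to 2.84 CPM, with *TTR* and *HNF4A* at 0 in every library, those of endothelial cells from 4.94 to 5.88 CPM, and those of leukocytes and macrophages from 9.07 to 11.02 CPM, with *CD163* at 0.

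Of the 10 genes, 4 fell with the miR-6133-5p mimic and none rose. A gene was called lower or higher where the adjusted p-value of edgeR's quasi-likelihood test was below 0.01 and the log2 fold change was beyond 0.8. *PRRX1* fell most, followed by *TBX3*, *SNAI2* and *TWIST2*. In the whole table, 5.54% of the tested genes met this rule as lower and 2.9% as higher. Besides the 0 genes called higher by edgeR, 0 of the 10 were higher at an unadjusted p-value of 0.05, and 8 were lower. At that unadjusted threshold 20.3% of all tested genes were lower and 20.0% were higher. DESeq2 called the same 4 genes lower and 0 higher, with 8 lower and 0 higher at an unadjusted p-value of 0.05, against 19.3% and 16.6% of all tested genes. The median log2 fold change of the 10 genes was -0.53, against 0.03 for all tested genes. In bulk RNA, less RNA per cell and fewer cells expressing a gene cannot be told apart.

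Read by libraries alone, 8 of the 10 genes were lower in each miR-6133-5p library than in either miControl library, 0 were higher in this way, and *ZEB1* and *TWIST1* overlapped. Among all tested genes, 31.3% were below in this sense and 33.2% were above. With libraries scaled by their totals alone, without TMM factors, the median of all genes moved from 0.03 to 0.19, by 0.16 on the log2 scale. With that scaling 8 of the 10 genes were still below, *TWIST1* was above, and 3 were called lower, since *TWIST2* was at -0.71. *SNAI2* and *PRRX1* were named by the study among EMT genes lower in these libraries, and *TBX3* was 1 of 36 predicted targets it picked from them, so their falls are not independent evidence.

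**Figure D1:**
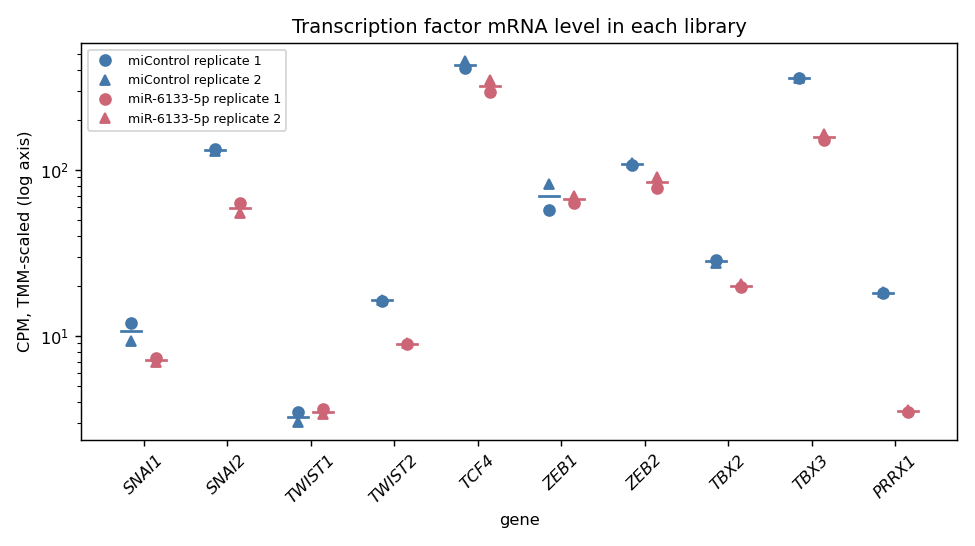
Level of each of the 10 genes in every library, in CPM on a log axis, with circles for replicate 1, triangles for replicate 2 and a line at each group mean, miControl in blue and miR-6133-5p in red. The miR-6133-5p libraries of *PRRX1*, at 3.49 and 3.60 CPM, are far below those of miControl, at 18.1 and 18.3 CPM, while the libraries of *ZEB1* and *TWIST1* overlap.

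*SNAI1* encodes Snail, a zinc finger repressor of *CDH1*. The gene, ENSG00000124216, lies at chr20:48599517-48605423 on the plus strand of GRCh37, the build of all gene positions that follow. It had 11.96 and 9.33 CPM in the miControl libraries and 7.31 and 6.95 CPM in the miR-6133-5p libraries. Both miR-6133-5p libraries were the lower ones, and the miControl libraries were further apart than the miR-6133-5p libraries. The log2 fold change was -0.58 with a standard error of 0.149 and an adjusted p-value of 0.0101 by edgeR, so it was not called. By DESeq2 the adjusted p-value was 0.0058, and the fold remained short. Without miControl replicate 1 the log2 fold change was -0.40 and without miControl replicate 2 it was -0.77.

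*SNAI2* encodes Slug, the paralogue of Snail, which is known from neural crest and from wound-edge epithelium. The gene, ENSG00000019549, lies on chromosome 8 from 49830157 to 49834299 on the minus strand. Its levels were 133 and 129.9 CPM in miControl and 63.3 and 54.6 CPM in miR-6133-5p. The groups were well apart, and *SNAI2* fell by 55.2%, a log2 fold change of -1.16 with a standard error of 0.109 and an adjusted p-value of 4.81e-06 by edgeR. Per kilobase of exon *SNAI2* made up 85.3% and 87.9% of the summed level of the Snail pair in miControl, and 81.8% and 80.3% in miR-6133-5p. *SNAI2* was thus the more abundant of the pair in all 4 libraries.

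*TWIST1* encodes a bHLH factor of cranial and limb mesenchyme. The gene, ENSG00000122691, lies at chr7:19060614-19157259 on the minus strand. It had 3.48 and 3.05 CPM in miControl and 3.62 and 3.37 CPM in miR-6133-5p, from 166 to 334 counts per library. The libraries overlapped, with a log2 fold change of 0.10, a standard error of 0.185 and an adjusted p-value of 0.741 by edgeR. Without miControl replicate 2 the log2 fold change was -0.02, so it had no settled sign. An antisense transcript covers 7.06% of its exon bases and had 4 and 3 counts in miControl and 12 and 18 in miR-6133-5p.

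*TWIST2*, also called Dermo-1, encodes a closely related factor of dermal mesenchyme. The gene, ENSG00000233608, lies at chr2:239756673-239832230 on the plus strand. It went from 16.3 and 16.6 CPM in miControl to 8.90 and 9.01 CPM in miR-6133-5p. Replicates were close to each other in both groups, and *TWIST2* fell by 45.4%, with a log2 fold change of -0.87, a standard error of 0.120 and an adjusted p-value of 0.000122 by edgeR. It was the called gene nearest to the fold threshold. Per kilobase of exon *TWIST2* made up 84.7% and 86.5% of the TWIST pair in miControl and 74.4% and 76.0% in miR-6133-5p. The log2 fold change of *TWIST2* was lower than that of *TWIST1* by 0.97, a difference that was not tested.

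*TCF4* encodes the E protein E2-2, a bHLH partner, and is not the Wnt pathway factor of the same nickname, which is *TCF7L2*. The gene, ENSG00000196628, lies at chr18:52889416-53332018 on the minus strand. It was at 411 and 450.0 CPM in miControl and at 293 and 349 CPM in miR-6133-5p. The groups did not overlap, but the miR-6133-5p libraries were further apart than the miControl libraries. The log2 fold change was -0.42 with a standard error of 0.115 and an adjusted p-value of 0.0133 by edgeR, short of both thresholds. By DESeq2 the adjusted p-value was 0.0019, and the fold remained short.

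*ZEB1* and *ZEB2* encode large zinc finger and homeodomain proteins that repress epithelial genes and are themselves held down by the miR-200 family. *ZEB1*, ENSG00000148516, lies at chr10:31607424-31818742 on the plus strand. It had 57.3 and 81.8 CPM in miControl and 63.4 and 70.0 CPM in miR-6133-5p. Both miR-6133-5p libraries lay between the miControl libraries, and the log2 fold change was -0.06 with a standard error of 0.143 and an adjusted p-value of 0.802 by edgeR. The sign turned with the setting, to 0.10 with library totals alone and to 0.19 without miControl replicate 2, and without miControl replicate 1 the value was -0.30. The log2 difference between the miControl libraries was 0.51, against a median of 0.10 over the 1728 genes in the same bin of GC content, of bins with about equal numbers of genes. The antisense gene *ZEB1-AS1* covers 4.58% of its exon bases and had from 122 to 194 counts per library.

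*ZEB2*, ENSG00000169554, lies at chr2:145121931-145278624 on the minus strand. It had 107 and 110.0 CPM in miControl and 77.3 and 90.6 CPM in miR-6133-5p. The groups did not overlap, and the log2 fold change was -0.37 with a standard error of 0.109 and an adjusted p-value of 0.0220 by edgeR. It passed neither threshold in this edgeR fit, which had no block. The adjusted p-value was 0.0076 by DESeq2 and 0.0051 by edgeR with the replicate block, and the fold remained short in each. Without miR-6133-5p replicate 1 the log2 fold change was -0.28, and without miR-6133-5p replicate 2 it was -0.50. A pseudogene on the same strand covers 11.3% of its exon bases and had at most 6 counts in a library. The share of *ZEB2* in the ZEB pair per kilobase of exon was 38.1% and 30.8% in miControl and 28.7% and 30.0% in miR-6133-5p, and *ZEB1* was the more abundant of the pair in all 4 libraries. With the canonical transcript length *ZEB2* was above *ZEB1* in miControl replicate 1, at 11.5 against 9.66 CPM per kilobase, and below it in the other libraries.

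*TBX2* and *TBX3* encode T-box repressors of the same subfamily that are known to hold down inhibitors of the cell cycle. *TBX3*, ENSG00000135111, lies at chr12:115108060-115121980 on the minus strand. It was at 356 and 356 CPM in miControl and at 151 and 165 CPM in miR-6133-5p. The replicates were close and the groups were far apart, and *TBX3* fell by 55.7%, a log2 fold change of -1.17 with a standard error of 0.104 and an adjusted p-value of 2.86e-06 by edgeR.

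*TBX2*, ENSG00000121068, lies at chr17:59477204-59486827 on the plus strand. Its levels were 28.6 and 27.7 CPM in miControl and 19.7 and 20.5 CPM in miR-6133-5p. The groups did not overlap, and the adjusted p-value of 0.00414 by edgeR was below the threshold, but the log2 fold change of -0.49, with a standard error of 0.109, was not beyond 0.8. Per kilobase of exon *TBX3* made up 92.7% and 92.9% of the pair in miControl and 88.7% and 89.1% in miR-6133-5p.

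*PRRX1* encodes a paired-related homeodomain factor of limb and craniofacial mesenchyme. The gene, ENSG00000116132, lies at chr1:170631869-170708562 on the plus strand. Counts were 891 and 998 with miControl and 228 and 357 with miR-6133-5p, or 18.1 and 18.3 CPM against 3.49 and 3.60 CPM. The groups were far apart while the replicates nearly coincided. *PRRX1* fell by 80.5%, a log2 fold change of -2.36 with a standard error of 0.131 and an adjusted p-value of 7.25e-08 by edgeR. It was the 1 gene of the 10 still called when glmTreat tested the change against the log2 fold change of 0.8 itself.

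**Figure D2:**
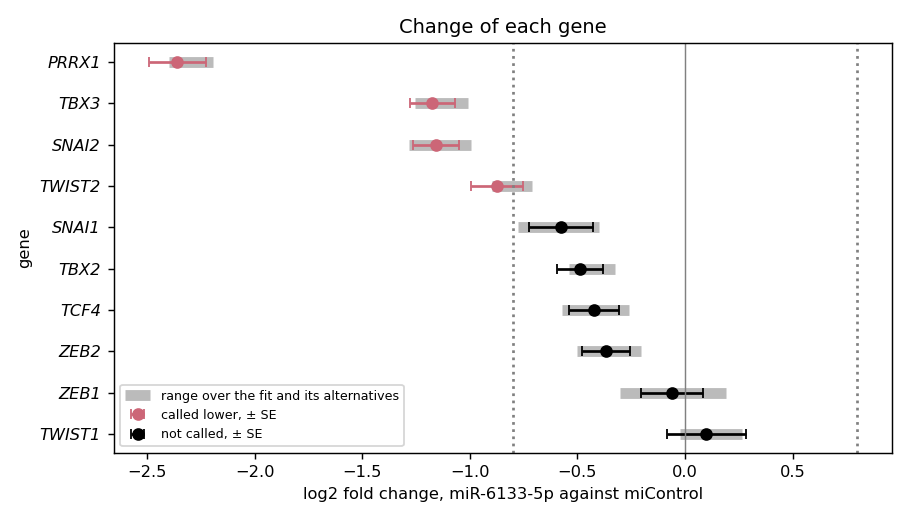
Log2 fold change of each of the 10 genes, miR-6133-5p against miControl, as points with error bars of 1 standard error from edgeR, grey bars for the range over all settings tried and dotted lines at the fold thresholds. *PRRX1* at -2.36, *TBX3* at -1.17, *SNAI2* at -1.16 and *TWIST2* at -0.87 are the called genes. The sign of *ZEB1* turned with library totals alone and without miControl replicate 2, and that of *TWIST1* turned without miControl replicate 2.

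By level per kilobase of exon, the order of the 10 genes was headed in both groups by *TBX3*, *SNAI2* and *TCF4*. The mean level of *TBX3* was 59.7 CPM per kilobase in miControl and 26.5 in miR-6133-5p. *PRRX1* was 9th in miControl, at 2.21 CPM per kilobase, and 10th in miR-6133-5p, at 0.430, where *TWIST1* at 1.75 was above it. In miControl the libraries of the neighbours *ZEB1* and *SNAI1* overlapped, in miR-6133-5p those of *TBX2* and *ZEB2* did, and the other neighbours in either order did not. With the length of the canonical transcript in place of all exons, *TCF4* headed the order in miR-6133-5p, followed by *TBX3* and *SNAI2*. In both groups *SNAI1* then went from 6th to 8th and *ZEB2* from 8th to 6th, so the order depended on the length used. The summed CPM of the 10 genes was 1143 and 1202 in miControl and 691 and 773 in miR-6133-5p.

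**Figure D3:**
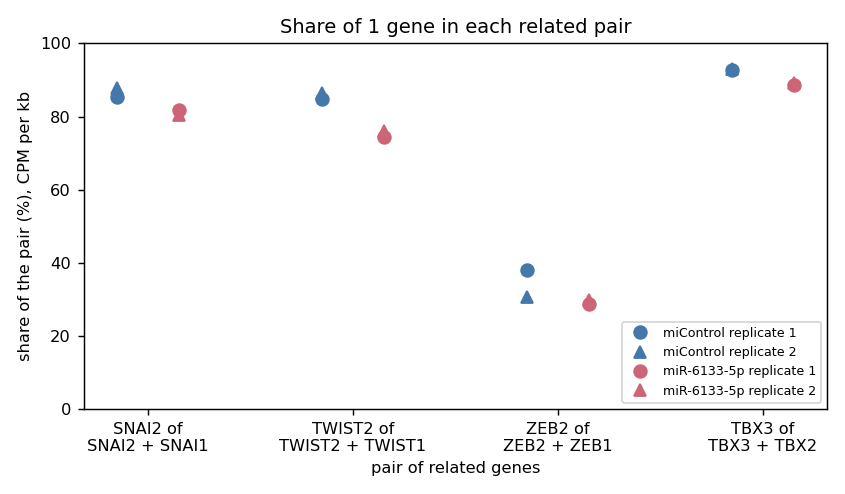
Share of the first gene of each pair of paralogues in the summed level of the pair, per kilobase of exon and in percent, with circles for replicate 1 and triangles for replicate 2, miControl in blue and miR-6133-5p in red. *TBX3* and *SNAI2* make up over 80% of their pairs in all 4 libraries, and *TWIST2* goes from 84.7% and 86.5% in miControl to 74.4% and 76.0% in miR-6133-5p.

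The genes whose pattern over the 4 libraries was most like that of *PRRX1*, by the Euclidean distance of centred log2 CPM among 9463 candidates, were *TGFBR2* at 0.0485, *TIMP3* at 0.0966 and *INHBA* at 0.109. *TGFBR2*, the type 2 receptor of TGF-β, had 542 and 552 CPM in miControl and 109 and 112 CPM in miR-6133-5p, which is -2.31 as a log2 fold change. *TIMP3*, an inhibitor of matrix metalloproteinases, and *INHBA*, a subunit of activin, had log2 fold changes of -2.32 and -2.29. With 4 libraries in 2 groups, this measure is mostly a likeness of fold change.

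Most relatives of the 10 genes had too few counts to be tested. Of 24 further genes of the Snail, TWIST and HAND, PRRX and T-box families, 8 were at 0 in every library and 8 were tested. *TBX20*, a T-box gene of heart development, fell from 6.08 and 5.71 CPM to 2.29 and 3.55 CPM, a log2 fold change of -1.0 with an adjusted p-value of 0.00237 by edgeR. It was the 1 relative called, and no relative was called without miControl replicate 1, without miControl replicate 2 or without miR-6133-5p replicate 1. *TBX18* was not called, with a log2 fold change of -0.52 and an adjusted p-value of 0.00157 by edgeR, nor was *MGA*, at -0.24.

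The ID proteins bind bHLH proteins and keep them from DNA, and the other E proteins are partners that TWIST shares with TCF4. Of 5 tested genes among the 6 E protein and ID genes listed, 1 was called, and it was higher. *ID1* rose from 11.2 and 10.5 CPM in miControl to 24.6 and 20.1 CPM in miR-6133-5p, or by 1.04 on the log2 scale, with an adjusted p-value of 6.13e-05 by edgeR. The E protein gene *TCF3* was below in both miR-6133-5p libraries with a log2 fold change of -0.55, and *TCF12* was below with -0.30, neither beyond the fold threshold.

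Other transcription factors of mesenchyme and of stellate cells were 37 listed genes, of which 29 were tested, 11 were called lower and 0 were called higher. Both miR-6133-5p libraries were below for 22 of the 29 genes and above for 4, and the median log2 fold change was -0.62. *LEF1*, the nuclear partner of β-catenin, fell from 48.1 and 52.0 CPM to 11.8 and 10.8 CPM, a log2 fold change of -2.15. *LHX9*, a LIM homeodomain gene, fell by 2.09 on the log2 scale. *HIC1*, a zinc finger repressor, fell by 1.97, and *FOXF1*, a forkhead factor of visceral mesenchyme and of stellate cells, fell by 1.69. The other called genes were *SIX2*, *SRF*, *FOXD1*, *SOX9*, *NR2F1*, *RUNX1* and *NR2F2*, with log2 fold changes from -1.68 to -0.84. The most abundant uncalled genes were *ETS1*, at -0.33, and *FOSL1*, at -0.26.

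Transcription factors of epithelium were at low levels in both groups. Of 16 listed, 5 were tested and 0 were called by edgeR, with a median log2 fold change of 0.01, and *GRHL2*, *ELF5*, *HNF4A* and *ESRP1* were at 0 in every library. *KLF4* had 11.7 and 10.9 CPM in miControl and 11.9 and 10.97 CPM in miR-6133-5p. The libraries of *KLF4* and of *KLF5* overlapped between the groups.

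Cofactors through which Snail, ZEB and TWIST repress, among them histone deacetylases and Polycomb and NuRD subunits, were 26 genes, all tested. Of these, 2 were called lower and 2 higher, or 7.7% each, against 5.54% and 2.9% of all tested genes. *SETD8*, a histone H4 methyltransferase gene, fell by 0.87 on the log2 scale. *EZH2*, the methyltransferase of Polycomb complex 2, rose from 60.0 and 60.2 CPM to 117 and 107 CPM, a log2 fold change of 0.89, and *AJUBA*, a LIM protein that binds Snail, rose by 0.84. With library totals alone 0 were called lower and 4 higher, and without miControl replicate 1 or without miR-6133-5p replicate 1 the number called lower was 1. *CHD4* and *KDM1A*, the most abundant uncalled genes, had log2 fold changes of -0.11 and 0.45.

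Genes for kinases, ubiquitin ligases and other enzymes that set how long these factors last were 20 listed and 19 tested. By edgeR 1 was called lower and 0 higher. The share called lower, 5.3%, was near the 5.54% of all tested genes. *LOXL2*, a lysyl oxidase that stabilises Snail, fell from 659 and 606 CPM to 298 and 316 CPM, a log2 fold change of -1.04, and is also on the list of mesenchymal genes. The number called lower was 3 without miControl replicate 2 and 2 without miR-6133-5p replicate 1. *GSK3B*, the kinase that marks Snail for degradation, was at -0.07, and *FBXL5*, a ubiquitin ligase subunit, was at 0.70 and was not called.

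Junction and cytoskeleton genes of epithelial cells, several of them known to be repressed by these factors, were 32 listed genes, of which 20 were tested. Of these, 2 (10%) were called lower and 1 (5%) higher, against 5.54% and 2.9% of all tested genes. Their median log2 fold change was 0.50. *CDH1*, the textbook target, had 0 and 2 counts in miControl and 2 and 2 in miR-6133-5p, at or under the floor of 3 counts, so no change could be read. *EPCAM* had from 2 to 4 counts. *PKP3*, a desmosomal plaque gene, rose from 0.773 and 0.698 CPM to 3.23 and 2.85 CPM, a log2 fold change of 2.04. *CLDN1*, a tight junction gene, fell from 0.895 and 0.863 CPM to 0.245 and 0.242 CPM, and *DSP*, a desmosome gene, fell from 53.6 and 60.6 CPM to 22.7 and 31.8 CPM. Both miR-6133-5p libraries were above for 14 of the 20 genes and below for 5, and *KRT8* was at 0.47 and *TJP1* at -0.41, neither called. The summed level of the 32 genes did not rise. It was 938 and 934 CPM in miControl and 903 and 927 CPM in miR-6133-5p. With library totals alone, without a filter on low counts or at an adjusted p-value threshold of 0.05, 4 genes were called higher. With the replicate block 3 were. The numbers called lower or higher also changed when single libraries were left out.

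Mesenchymal genes that these factors are known to accompany or raise were 27 listed and 26 tested, with 13 called lower and 0 called higher. The median log2 fold change was -1.01, and both miR-6133-5p libraries were below for 21 genes and above for 1. *ITGA5*, the fibronectin receptor subunit, had a log2 fold change of -3.13, *ACTA2*, smooth muscle actin, of -1.95 and *COL1A1*, a collagen I chain, of -1.46. *CDH11*, a mesenchymal cadherin, fell from 90.2 and 95.6 CPM to 35.4 and 36.7 CPM, a log2 fold change of -1.37. *VIM*, the mesenchymal intermediate filament, had 1853 and 1776 CPM in miControl and 2030 and 1555 CPM in miR-6133-5p, and its libraries overlapped. *SPARC* was at -0.40 and was not called. Several of these genes were named by the study from these libraries, so their count is not independent evidence. Without a filter on low counts, with the replicate block or at an adjusted p-value threshold of 0.05, 1 gene of the list was called higher. The numbers called also changed when single libraries were left out.

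**Figure D4:**
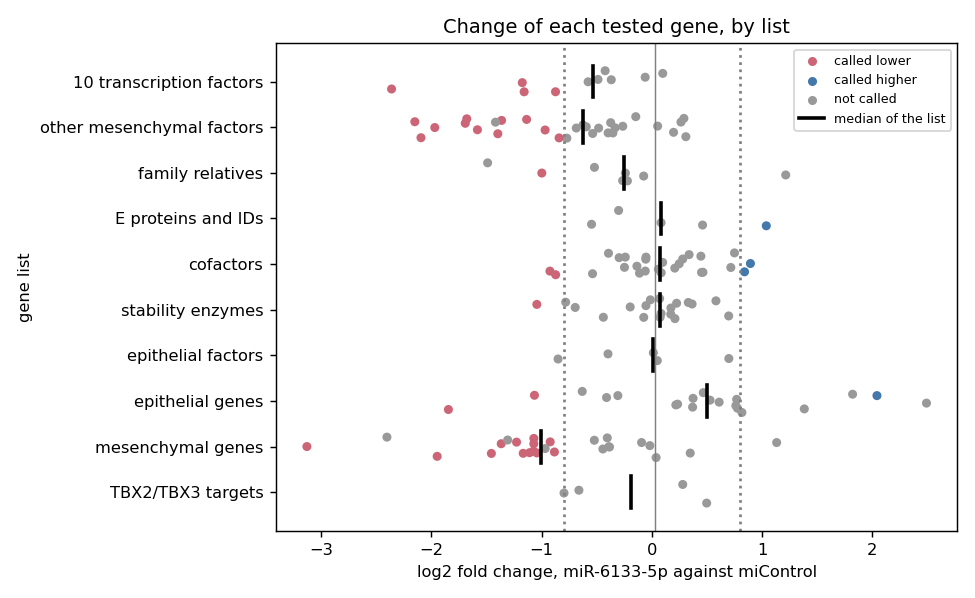
Log2 fold changes of the tested genes of each list, miR-6133-5p against miControl, as points coloured by call, with the list's median as a thick line, the median of all tested genes as a thin line and the fold thresholds dotted. The medians of the mesenchymal genes, at -1.01, of the other mesenchymal factors, at -0.62, and of the 10 genes, at -0.53, are the lowest, and that of the epithelial genes, at 0.50, is the highest. The summed CPM of the epithelial genes was not higher with miR-6133-5p.

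The inhibitors of the cell cycle and other genes that TBX2 and TBX3 are known to repress were 5 listed and 4 tested, with 0 called lower or higher by edgeR and a median log2 fold change of -0.19. *CDKN1A*, which encodes p21, had 19.9 and 18.9 CPM in miControl and 10.9 and 11.4 CPM in miR-6133-5p, with a log2 fold change of -0.80 that was just short of the threshold, with an adjusted p-value of 0.000212 by edgeR. It was called lower by DESeq2, with RLE normalization, with at least 10 counts in every library, with halved or thinned counts, and without miControl replicate 2 or miR-6133-5p replicate 2. *CDKN2A* was at 0.28, and each miR-6133-5p library was above either miControl library.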

How the data were processed

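Libraries were prepared from poly-A RNA of LX-2 cells and sequenced in pairs with 150 bases from each end. The authors mapped them to GRCh37 with STAR 2.5.3a, and the submitters' processing notes also list featureCounts and Subread 1.6.4. The authors deposited whole-number counts per Ensembl gene without normalization, and the tables of single libraries equalled the table of the whole series in 4 of 4 libraries. The deposited mapping summary gave read pairs and the fraction of them that mapped uniquely. The annotation release and the strand and pair settings of the counting are not given in the sources used here. There were 1.68 to 1.70 counts per uniquely mapped pair, so a pair could give more than 1 count. Symbols were matched for 55665 of 63677 genes, and exon lengths and overlaps were taken from GENCODE models lifted to GRCh37.

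The counts were filtered by filterByExpr, scaled by TMM factors and tested 2-sided with glmQLFit and glmQLFTest of edgeR 4.0.16 under R 4.3.3, with Benjamini-Hochberg adjustment over 18252 genes and no block. Calls used the thresholds of the study's RNA sequencing methods, an adjusted p-value of 0.01 and a log2 fold change of 0.8. The study's lists that named *SNAI2*, *PRRX1* and *TBX3* were drawn with other thresholds. Standard errors came from the F statistic. Groups of 2 libraries allow no exact p-value below 0.333, so p-values rest on the variance shared across genes, with a common coefficient of variation of 10.5%. Depth ran from 51862006 to 93811213 counts per library, and intervals from counts alone were not computed.

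The 10 genes, the 9 further lists and the marker lists were chosen with earlier results of these data known. Named genes are all 10 members, up to 4 called genes with the largest absolute fold change and up to 2 uncalled genes with the highest CPM in each further list, the 3 genes, of mean log2 CPM 3 or more, whose pattern was nearest to that of the gene with the largest change, and genes overlapping a member. *TBX18*, *TCF3*, *TCF12*, *FBXL5*, *CDKN1A*, *CDH1*, *EPCAM* and the called genes beyond 4 in a list were named after their values were seen. Results for some single genes of the lists are not reported here. The alternatives tried were library totals alone, RLE normalization, DESeq2 1.42.0, other filters, a replicate block, thinned counts, each library left out, glmTreat and an adjusted p-value of 0.05. Counts divided by 2 and the canonical transcript length were added after seeing the data. Python 3.11.15 with pandas 2.3.3 and matplotlib 3.10.9 was used for lists and plots.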

Additional observations from a re-analysis of the deposited data

How the results depend on the processing

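Of the 10 genes, 4 were called lower and 0 higher in every alternative run (RLE normalization, DESeq2, the filters on counts, the replicate block, halved and thinned counts, the adjusted p-value of 0.05 and each library left out), except that 3 were called lower with library totals alone and 1 with glmTreat. With glmTreat the adjusted p-values by edgeR were 0.0218 for *SNAI2*, 0.0127 for *TBX3* and 1 for *TWIST2*. The same genes were called wherever 4 were. The log2 fold change of *ZEB1* turned to 0.10 with library totals alone and to 0.19 without miControl replicate 2, and that of *TWIST1* to -0.022 in the same setting. With each library left out it ran from -0.30 to 0.19 for *ZEB1* and from -0.022 to 0.19 for *TWIST1*. In the 9 further lists, 29 genes were called lower and 4 higher. With glmTreat these were 12 and 1. The number called higher was 10 with library totals alone, 8 without a filter on low counts, 7 with the replicate block, 8 at an adjusted p-value of 0.05 and from 4 to 7 with each library left out. The number called lower ran from 25 to 30 with each library left out. Library totals alone moved the share of lower calls among all called genes from 65.6% to 42.1%, with 709 lower and 977 higher, and glmTreat gave 326 lower and 80 higher, a share of 80.3%. The same-numbered libraries of the groups deviated with a correlation of 0.0490. With 2 libraries per group this value cannot show whether the numbers pair them, and the labels do not say. With the replicate block 1130 genes were called lower and 642 higher. The block changed no call of the 10 genes. The causes were not tested, and lone libraries were assumed to vary like the other group. Seed matches of the mimic were not run. *CDH1* and *EPCAM* had at most 4 counts in any library, too few for a change to be read.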

Other observations

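Libraries of the same group differed along GC content in miControl. Across 17285 genes, which are not independent replicates, Spearman's rho between the GC content of a gene and the log2 difference of miControl replicate 2 from replicate 1 was -0.39, against 0.07 between the miR-6133-5p libraries and 0.04 for the difference between the groups. With transcript length the values were 0.13, 0.27 and -0.10. *ZEB1*, with 38.9% GC, had the largest difference of the 10 genes between the miControl libraries, 0.51, while *ZEB2*, with 39.0% GC, had one of 0.04. Epithelial and bile duct markers summed to 83.9 and 85.4 CPM in miControl and to 39.9 and 36.8 CPM in miR-6133-5p. Most of this was *SOX9*, which stellate cells also express, at 80.5 CPM on average in miControl and 31.3 CPM in miR-6133-5p. *KRT7* went the other way, from 3.62 and 4.44 CPM to 6.61 and 7.08 CPM, a log2 fold change of 0.76, and was not called. *KRT19* had 2 and 4 counts in miControl and 10 and 18 in miR-6133-5p and was not tested. *CDH1* and *EPCAM* were at or near 0. The part of these values in the results was not tested.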
